A study of Mus musculus with 12 samples.

Results

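The 34 genes described here encode the contractile apparatus and stress fibres of the myofibroblast. They are the measured members of a list of 36 gene symbols, matched to the symbols in the platform annotation, out of 19505 genes on the arrays. Each was read by 1 probe set, and Actg1 and Pdlim7 were not analysed here. The study hybridised 12 microarrays with RNA from cultured cardiac fibroblasts of neonatal wildtype C57BL/6J mice, aged 1 to 7 days, that had become myofibroblasts during 10 to 14 days in culture. The cells were given 40 nM sCD74 (the soluble ectodomain of CD74, a receptor for MIF) together with 8 nM MIF (macrophage migration inhibitory factor, a cytokine), 8 nM MIF alone, 40 nM sCD74 alone, or carrier. RNA was taken after 8 h. Each of the 4 groups had 3 arrays. All groups shared the strain, the genotype and the culture, and the cells were primary cells isolated from whole hearts, so cells of other types could be carried along.

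A myofibroblast is a fibroblast that has built stress fibres, bundles of actin and non-muscle myosin anchored to the substrate at focal adhesions. Smooth muscle alpha-actin (Acta2) is the standard marker of this state, and transgelin, calponin and the regulatory myosin light chain come with it. Many of these genes are targets of serum response factor (SRF), which binds the CArG box with the actin-sensing coactivators Mrtfa and Mrtfb. In the heart such cells stiffen and contract scar tissue. The comparisons ask whether 8 h of either protein, or of both, changed the transcripts of this machinery.

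All values are the deposited log2 probe set signals, on which a difference of 1 is a doubling if the scale is a plain log2 scale. Signals of 9 members passed 16 in at least 1 array, as did 200 genes of the whole table. This is the log2 of the largest number a 16-bit scanner can give, so a rescaling after the scan is likely and differences are reported in log2 units of the table. Signals of different probe sets do not rank genes against each other, and each gene is compared only with itself. Signal over background was similar in all arrays: the medians of the positive and the negative control probe sets lay 3.67 to 4.25 apart. The mean of the negative control medians was 7.53. Actg2 and Des had means below it, and 31 members lay above it in all 12 arrays. No size of a difference is given for Actg2 and Des, while counts and medians over the members keep them.

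The arrays carry replicate numbers 1, 2 and 3, and the titles give all 4 arrays of a number a shared code. Arrays of replicate number 1 stood apart in the markers of other cell types. Of 13 macrophage markers measured, all 13 passed limma's test as lower in number 1 than in numbers 2 and 3, with a median difference of -1.12, and of 10 endothelial markers 7 passed as higher and 1, Vwf, as lower. Of all genes 7.03% passed as higher in number 1 and 9.39% as lower. Arrays of replicate number 3 had less cardiomyocyte signal than those of number 2, with 10 of 14 markers lower, against 0.708% of all genes. Fibroblast markers, with 11 measured, had 0 members past the test in both of these comparisons, and Col1a1, Col3a1, Dcn and Postn lay far above the negative controls on all arrays, as the labelled cell type requires. In bulk RNA, fewer cells of a type and less RNA per cell cannot be told apart. Whether the replicates were separate isolations is not stated in the labels, and the p-values cover only the spread between these arrays, which may be technical. Within a group, values below are given in the order of replicate numbers 1, 2 and 3.

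The smooth muscle actins come first. Acta2 encodes smooth muscle alpha-actin. Its log2 signal was 16.97, 16.53 and 16.42 with sCD74 and MIF, 16.76, 16.53 and 16.36 with MIF, 16.98, 16.47 and 16.32 with sCD74, and 16.55, 16.48 and 16.35 with carrier. The treatment groups overlapped, and in each of them the array of number 1 was the highest and that of number 3 the lowest. Actg2, the gamma-actin of visceral smooth muscle, gave 7.88, 6.94 and 7.26 with sCD74 and MIF, 7.56, 6.70 and 6.94 with MIF, 7.67, 6.39 and 6.33 with sCD74, and 6.60, 6.57 and 6.65 with carrier. It lay below the negative control median in 9 of 12 arrays, and the arrays above it were the 3 treated arrays of number 1. Actb, the cytoplasmic beta-actin often used as a loading control, stayed within 17.43 to 17.62 in all arrays.

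Transgelins and calponins bind along actin filaments. Tagln (transgelin, SM22-alpha) had log2 signals of 16.35, 15.63 and 15.32 with sCD74 and MIF, 15.75, 15.36 and 15.35 with MIF, 16.15, 15.55 and 15.15 with sCD74, and 15.55, 15.57 and 15.09 with carrier. Its 3 highest arrays were the treated arrays of number 1, and all groups overlapped. Tagln2, the transgelin found in many non-muscle cells, gave 15.57, 15.34 and 15.53 with sCD74 and MIF, 15.36, 15.09 and 15.33 with MIF, 15.39, 14.95 and 15.12 with sCD74, and 15.19, 14.86 and 15.21 with carrier. Here the 3 arrays with both proteins lay above the 3 carrier arrays. Cnn1, the smooth muscle calponin, gave 9.91, 9.35 and 9.36 with sCD74 and MIF, 9.04, 9.10 and 8.91 with MIF, 9.55, 8.58 and 8.65 with sCD74, and 8.95, 8.96 and 9.38 with carrier. All pairs of groups overlapped for Cnn1 except co-treatment against MIF, where the 3 arrays with both proteins were the higher ones. Cnn3, a calponin of non-muscle cells, gave 15.14, 14.82 and 15.00 with sCD74 and MIF, 15.22, 14.74 and 14.95 with MIF, 15.10, 14.71 and 14.95 with sCD74, and 15.04, 14.66 and 15.03 with carrier. In every treatment the Cnn3 array of number 1 was the highest and that of number 2 the lowest. Cnn2, the other calponin, ran from 13.00 to 14.17, both ends with sCD74.

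**Figure D1:**
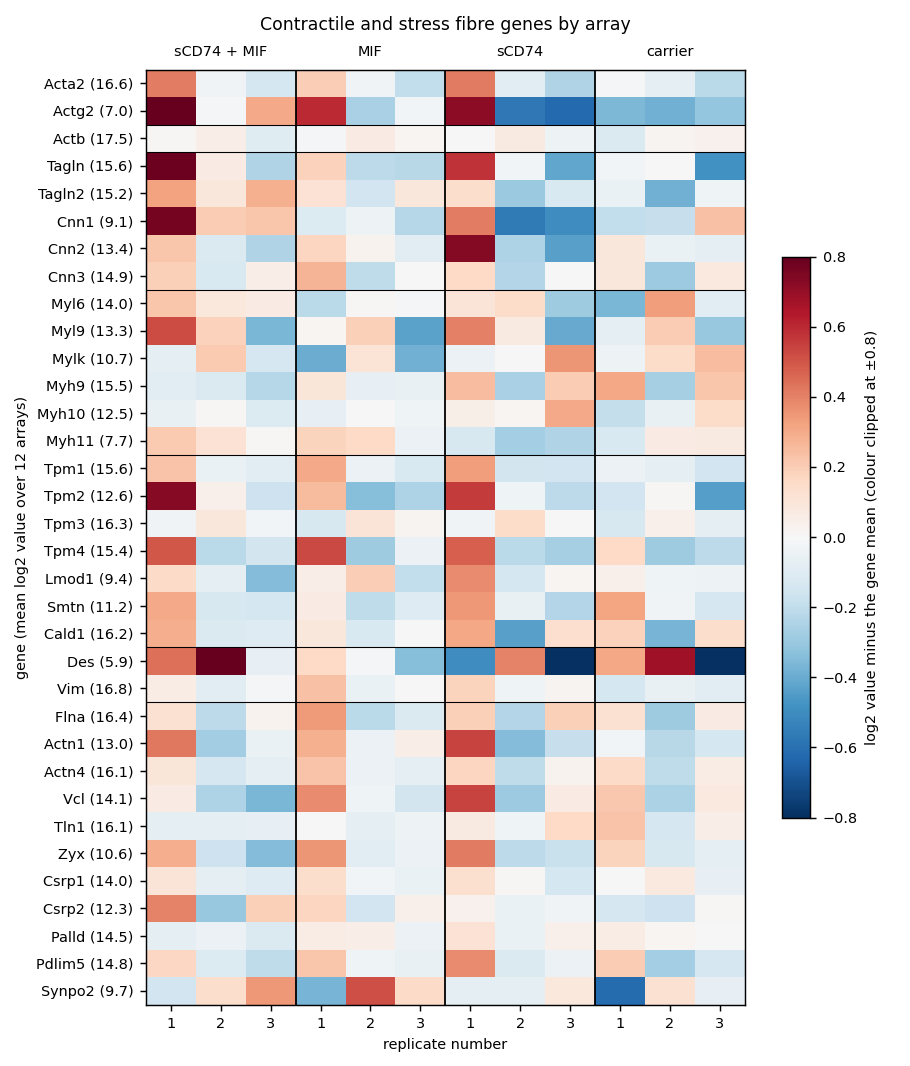
Log2 signal of the 34 members (rows, grouped by role, with the mean over 12 arrays in brackets) on each of the 12 arrays (columns, by treatment and replicate number), as the difference from the gene's own mean, with colour clipped at the ends of the scale. The columns of replicate number 1 in the 3 treated groups are red for most genes, and the carrier column of number 1 is paler.

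Among the myosin genes, Myl9 encodes the regulatory light chain whose phosphorylation starts contraction. It had log2 signals of 13.79, 13.45 and 12.90 with sCD74 and MIF, 13.28, 13.46 and 12.84 with MIF, 13.67, 13.34 and 12.86 with sCD74, and 13.19, 13.47 and 12.96 with carrier. The 4 arrays of number 3 were its 4 lowest. Mylk, the kinase that phosphorylates this light chain, gave 10.67, 10.96 and 10.61 with sCD74 and MIF, 10.35, 10.86 and 10.36 with MIF, 10.70, 10.75 and 11.10 with sCD74, and 10.71, 10.89 and 10.99 with carrier. Its 2 lowest arrays were MIF arrays, but the MIF array of number 2 lay among the carrier arrays. Myh10, the heavy chain of non-muscle myosin IIB, gave 12.47, 12.54 and 12.42 with sCD74 and MIF, 12.46, 12.53 and 12.49 with MIF, 12.58, 12.55 and 12.84 with sCD74, and 12.34, 12.47 and 12.68 with carrier. Each sCD74 array of Myh10 lay above each array with both proteins and each with MIF. Myh11, the smooth muscle heavy chain, gave 7.91, 7.82 and 7.71 with sCD74 and MIF, 7.88, 7.86 and 7.65 with MIF, 7.57, 7.43 and 7.46 with sCD74, and 7.58, 7.76 and 7.78 with carrier. It lay close to the negative control median, 2 of its arrays lay below it, and its 3 sCD74 arrays were the 3 lowest. Myh9, the heavy chain of non-muscle myosin IIA, ran from 15.21 to 15.79, and Myl6, an essential light chain, from 13.68 to 14.38.

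Tropomyosins wind along the actin filament and set which proteins can bind it. Tpm4 had log2 signals of 15.89, 15.17 and 15.24 with sCD74 and MIF, 15.92, 15.10 and 15.34 with MIF, 15.87, 15.17 and 15.13 with sCD74, and 15.55, 15.11 and 15.18 with carrier. The 4 arrays of number 1 were the 4 highest. Smtn (smoothelin, an actin-binding protein of contractile smooth muscle) gave 11.50, 11.07 and 11.06 with sCD74 and MIF, 11.26, 10.99 and 11.09 with MIF, 11.54, 11.14 and 10.96 with sCD74, and 11.51, 11.17 and 11.06 with carrier. The arrays of number 1 were again the 4 highest, carrier included. Tpm1 ran from 15.48 to 15.97, Tpm2 from 12.20 to 13.37 and Tpm3 from 16.15 to 16.43. Cald1 (caldesmon, which restrains myosin on actin) ran from 15.82 to 16.56, and Lmod1 (leiomodin, which nucleates actin filaments in smooth muscle) from 9.02 to 9.75.

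Crosslinkers and adhesion proteins tie the fibres together and to the membrane. Flna (filamin A) had log2 signals of 16.50, 16.17 and 16.40 with sCD74 and MIF, 16.71, 16.16 and 16.26 with MIF, 16.57, 16.14 and 16.56 with sCD74, and 16.50, 16.09 and 16.44 with carrier. Zyx (zyxin, a sensor of tension at adhesions) gave 10.93, 10.48 and 10.30 with sCD74 and MIF, 11.00, 10.55 and 10.60 with MIF, 11.06, 10.44 and 10.47 with sCD74, and 10.82, 10.51 and 10.57 with carrier. Pdlim5, a PDZ and LIM domain protein that binds alpha-actinin, gave 14.94, 14.66 and 14.56 with sCD74 and MIF, 14.99, 14.73 and 14.71 with MIF, 15.14, 14.65 and 14.72 with sCD74, and 14.97, 14.49 and 14.63 with carrier. For Zyx and Pdlim5 the arrays of number 1 were the 4 highest of 12, and for Flna that of number 2 was the lowest in every treatment. The alpha-actinins Actn1 and Actn4 ran from 12.63 to 13.52 and from 15.93 to 16.36. The adhesion proteins Vcl (vinculin) and Tln1 (talin) ran from 13.69 to 14.60 and from 15.93 to 16.29. The LIM proteins Csrp1 and Csrp2 ran from 13.88 to 14.16 and from 11.96 to 12.65. Palld (palladin) ran from 14.39 to 14.62 and Synpo2 (synaptopodin 2), both actin-bundling proteins, from 9.09 to 10.22.

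Of the intermediate filament genes, Vim (vimentin, the filament of mesenchymal cells) had log2 signals of 16.83, 16.68 and 16.76 with sCD74 and MIF, 17.00, 16.72 and 16.77 with MIF, 16.95, 16.74 and 16.79 with sCD74, and 16.63, 16.71 and 16.68 with carrier. The lowest MIF array and the lowest sCD74 array lay just above the highest carrier array. Des (desmin, the filament of muscle cells) gave 6.38, 6.76 and 5.87 with sCD74 and MIF, 6.09, 5.92 and 5.60 with MIF, 5.44, 6.33 and 5.04 with sCD74, and 6.25, 6.61 and 4.95 with carrier. All 12 of these lay below the mean negative control median, so the muscle intermediate filament was not detectable above background.

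Over the 12 arrays, 10 members varied by under 0.5 from the lowest array to the highest: Actb, Myh10, Myh11, Tpm1, Tpm3, Vim, Actn4, Tln1, Csrp1 and Palld. In 7 the range passed 1: Actg2, Tagln, Cnn1, Cnn2, Tpm2, Des and Synpo2. The median SD over the 12 arrays was 0.21 for the members and 0.21 for all genes, so the spread of the list was close to that of the table. What differed was where the spread lay. The replicate number took a median of 60.0% of a member's sum of squares, against 28.5% for all genes and 40.1% for genes above the negative control median. The treatment took 14.6% of a member's, against 19.2% and 16.7%. The share of the replicate number ran from 5.65% for Myh11 to 89.9% for Cnn3. It was 89.7% for Tpm4, 86.1% for Zyx, 76.3% for Acta2 and 18.3% for Cnn1. Acta2 and Tpm4 thus followed the replicate number, and Cnn1 and Myh11 hardly did.

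**Figure D2:**
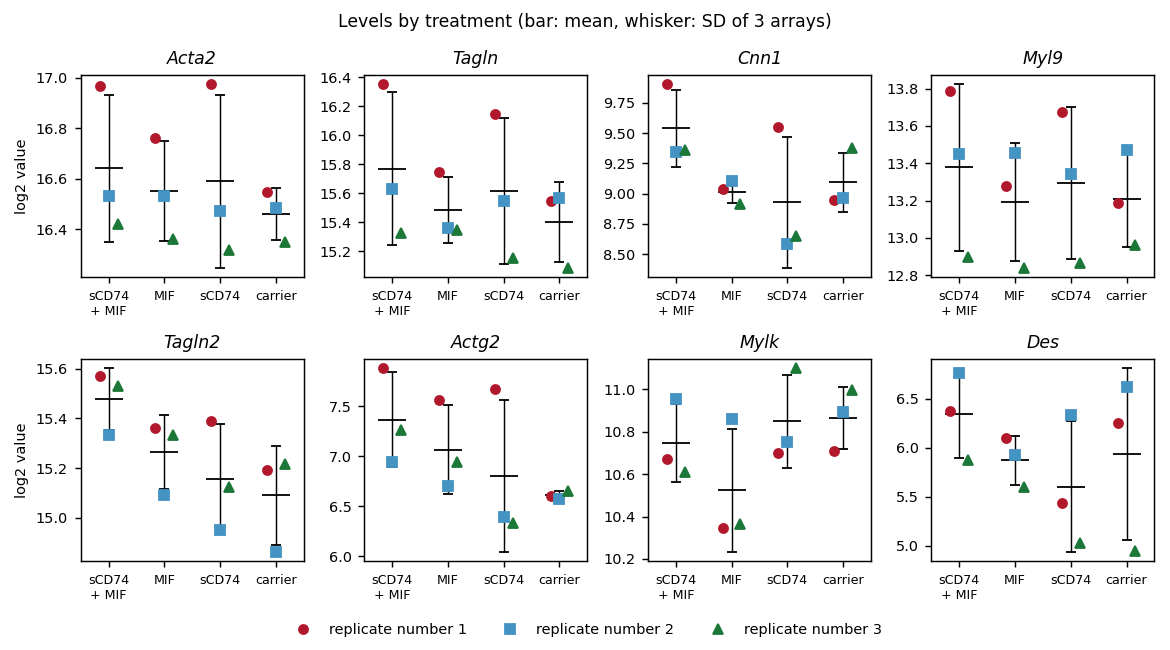
Log2 signal of 8 members by treatment, with a symbol for each array by replicate number, the mean as a horizontal bar and the SD of 3 arrays as a whisker; each panel has its own axis range, which does not start at 0. For Acta2 the number 1 arrays of the 3 treated groups lie at 16.76 to 16.98 and the carrier array at 16.55, while the arrays of numbers 2 and 3 lie at 16.32 to 16.53 in all 4 groups.

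Co-treatment with sCD74 and MIF gave no member past the test against carrier. Adjusted p-values come from limma over all 19505 genes, and 0% of genes passed in this comparison. Of the 34 members 22 were higher with both proteins, with a median log2 difference of +0.07 against 0.00 for all genes. At an unadjusted p under 0.05 there were 2 members, Tagln2 and Actg2, against 4% of all genes. Tagln2 averaged 15.48 ± 0.13 with both proteins and 15.09 ± 0.20 with carrier (SD, n = 3 each), a difference of +0.39 ± 0.15 (SE, adjusted p = 0.999). Its differences between same-numbered arrays were +0.38, +0.47 and +0.32, so the direction was the same in 3 of 3. Cnn1 averaged 9.54 ± 0.32 with both and 9.10 ± 0.24 with carrier, a difference of +0.45 ± 0.24, but its same-numbered differences were +0.96, +0.39 and -0.01. Acta2 differed by +0.18 ± 0.19 and Tagln by +0.37 ± 0.28, in each case less than 2 standard errors. The fit behind the standard errors against carrier has no term for the replicate number, so they include the shift between numbers. With the number as a block the smallest adjusted p of a member was 0.536. The 3 co-treated arrays lay above the 3 carrier arrays for 2 members, Tagln2 and Actg2, against 4.52% of all genes, and below them for Palld, against 3.96%. By role, the calponin family was higher in 4 of 5 members (median +0.37) and the crosslinkers and adhesion proteins in 5 of 11 (median -0.03).

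MIF alone also gave no member past the test against carrier, where 0% of genes passed. At an unadjusted p under 0.05 there were 0 members, against 3.35% of all genes. Members were higher with MIF in 24 of 34, with a median of +0.05 against +0.01 for all genes. Mylk had the smallest p (0.0700). It averaged 10.52 ± 0.29 with MIF and 10.86 ± 0.14 with carrier, a difference of -0.34 ± 0.17, and its same-numbered differences were -0.36, -0.03 and -0.63. Vim averaged 16.83 ± 0.15 with MIF and 16.67 ± 0.04 with carrier, a difference of +0.16 ± 0.12. The MIF and carrier arrays of Vim did not overlap, nor did those of Actg2 (higher with MIF). These 2 of 34 stand against 3.64% of all genes whose arrays separated upwards, and 0 members separated downwards, against 3.25%. Acta2 differed by +0.09 ± 0.19 and Myl9 by -0.01 ± 0.26. With the number as a block the smallest adjusted p of a member (limma) was 0.76.

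With sCD74 alone no member passed the test against carrier, where 0% of genes passed. At an unadjusted p under 0.05 there were 0 members, against 1.79% of all genes. Members were higher with sCD74 in 26 of 34, with a median of +0.07 against 0.00 for all genes. Myh11 had the smallest p (0.0953). It averaged 7.49 ± 0.08 with sCD74 and 7.71 ± 0.11 with carrier, a difference of -0.22 ± 0.12, and the mean with sCD74 lay below the negative control median. Vim averaged 16.82 ± 0.11 with sCD74 and 16.67 ± 0.04 with carrier (+0.15 ± 0.12), and Myh10 12.65 ± 0.16 and 12.50 ± 0.17 (+0.16 ± 0.13). Vim was higher in all sCD74 arrays than in all carrier arrays, against 2.51% of genes, and Myh11 lower in all, against 2.71%. The median 95% interval of these differences reached 0.38 to either side, unadjusted for the number of genes and with the shift between replicate numbers left in. For Acta2 the interval of the sCD74 difference ran from -0.29 to +0.54.

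The comparisons among the treated groups gave no call either. With both proteins against sCD74 alone, Myh11 was higher in all arrays (+0.33 ± 0.12, unadjusted p = 0.0184, adjusted p = 1.0), and Cnn1 differed by +0.61 ± 0.24 (unadjusted p = 0.0263). Arrays without overlap were found for Myh11 upwards, against 3.95% of all genes, and for Myh10 and Tln1 downwards, against 3.52%. Myh11 and Cnn1 were the 2 members with an unadjusted p under 0.05 in that comparison, against 2.67% of all genes. The mean of Myh11 with sCD74 lay below the negative control median, so its differences from sCD74 are set against a signal at background. With MIF against sCD74, Myh11 differed by +0.31 ± 0.12, the 1 member with such a p, against 2.74% of all genes, and Mylk by -0.33 ± 0.17. The arrays of these groups separated upwards for Myh11, against 3.65% of all genes, and downwards for Myh10, against 2.83%. With both against MIF, the member with the smallest p was Cnn1 (+0.52 ± 0.24, unadjusted p = 0.0517), so that 0 members had an unadjusted p under 0.05, against 2.38% of all genes. Arrays separated upwards for Cnn1 and Myl6, against 3.32% of all genes, and downwards for Myh9, against 3.83%. Over all 6 arrays with MIF against the 6 without it, Myh11 differed by +0.21 ± 0.09 and Tagln2 by +0.25 ± 0.11, the 2 members with an unadjusted p under 0.05, against 4.31% of all genes. Over the 6 arrays with sCD74 against the 6 without it 0 members had such a p, against 2.34%. The response to both proteins departed from the sum of the single responses by +0.69 ± 0.34 for Cnn1 (unadjusted p = 0.0670), the smallest p among members, where 1.86% of all genes had an unadjusted p under 0.05. In each of these comparisons 0% of genes and 0 members passed. With the replicate number as a block these counts were the same, except that 0.00513% of genes, 1 gene and no member, passed for the arrays with MIF against those without.

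Differences from carrier were uneven across the replicate numbers. Between same-numbered arrays of co-treatment and carrier, 26 of 34 members were higher in number 1 (median +0.13), 23 in number 2 (+0.05) and 14 in number 3 (-0.03). For MIF the counts were 27, 25 and 18, with medians of +0.15, +0.06 and +0.01. For sCD74 they were 29, 13 and 13, with medians of +0.22, -0.04 and -0.02. In number 1 the carrier array was the lowest of the 4 arrays for 22 of 34 members, against 30.8% of all genes. In number 2 it was the lowest for 10, against 22.1%, and in number 3 for 6, against 23.5%. These 3 comparisons share their carrier arrays, so the carrier array of number 1 enters each of them. Markers of some other cell types also stood apart in this carrier array, and those of others did not. In number 1 the mean of the 13 macrophage markers, as the difference from each gene's own mean, was -0.67 with both proteins, -0.70 with MIF, -0.85 with sCD74 and -0.49 with carrier. That of the 11 smooth muscle and pericyte markers was 0.47 with both, 0.47 with MIF, 0.58 with sCD74 and 0.31 with carrier. In the same order the fibroblast mean was 0.004, 0.094, 0.075 and -0.032, also with carrier lowest. The carrier mean lay within the treated range for the endothelial markers (0.794, 0.873, 0.792 and 0.827) and the cardiomyocyte markers (0.524, 0.508, 0.327 and 0.355). For the epicardial and mesothelial markers it was 0.042, level with co-treatment, against 0.103 with MIF and 0.11 with sCD74. The part of other cell types in the differences from carrier was not tested.

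**Figure D3:**
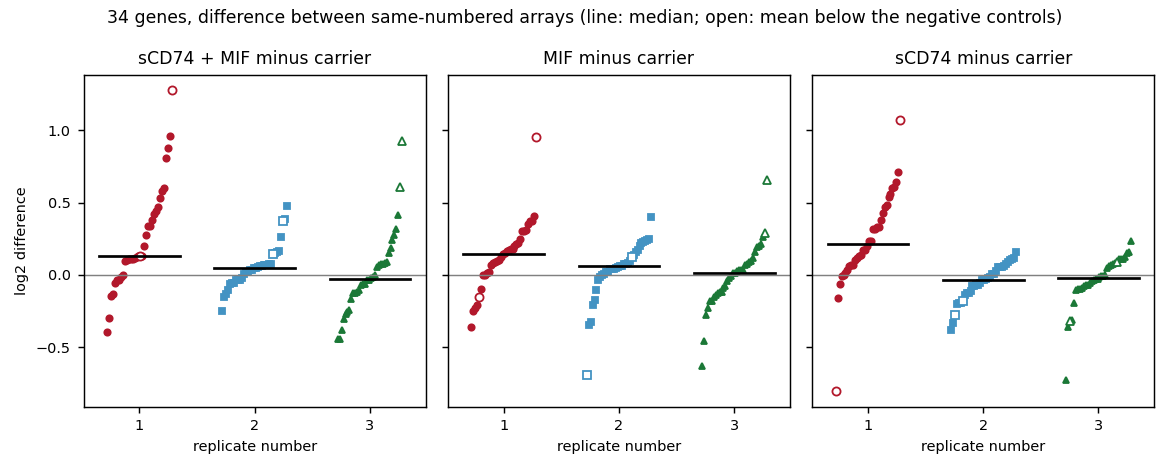
Log2 difference between treated and carrier arrays of the same replicate number for the 34 members, sorted within each column, with a line at the median and open symbols for Actg2 and Des, whose means lie below the negative controls. In number 1 most symbols lie above 0 in all 3 panels, with medians of +0.13, +0.15 and +0.22, while in number 3 the medians lie between -0.03 and +0.01.

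Some members differed from carrier in the same direction in every number. With co-treatment 10 of 34 were higher in 3 of 3 numbers, against 14.2% of all genes: Acta2, Actg2, Tagln, Tagln2, Tpm1, Tpm2, Tpm3, Tpm4, Des and Synpo2. Smtn and Palld were lower in 3 of 3, against 13.3% of all genes. With MIF 10 were higher in 3 of 3, against 13.7% of all genes, among them Acta2, Tagln2, Vim and Zyx, and 1, Mylk, was lower, against 12.7%. With sCD74 5 were higher, Myh10, Tpm3, Vim, Flna and Pdlim5, against 12.4% of all genes, and 1, Myh11, was lower, against 13.0%. These differences share the carrier arrays, and the members in them did not pass the test. When the number 1 array of the treated group was left out, the median was -0.02 for co-treatment, -0.03 for MIF and -0.06 for sCD74. That comparison is unbalanced, since it keeps the carrier array of number 1. Within carrier the median member was 0.11 higher in number 1 than in the other numbers, so a shift downwards is built in. Without all 4 arrays of number 1 the medians were +0.01, +0.01 and -0.02. The Tagln2 difference with co-treatment was +0.39 without the arrays of number 1.

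More members differed between the replicate numbers than between treatments. Compared with numbers 2 and 3, with treatment as a term in the fit, 28 of 34 members were higher in number 1, with a median log2 difference of +0.25 against +0.02 for all genes. Of these 15 passed as higher, where 7.03% of all genes did, and 1, Synpo2, passed as lower, where 9.39% did. In both directions 16.4% of genes passed. The members that rose were 2 of 2 smooth muscle actins, 3 of 5 transgelins and calponins, 5 of 7 tropomyosins and thin filament proteins and 5 of 11 crosslinkers and adhesion proteins. Of the 6 myosin genes, the 2 intermediate filament genes and Actb, 0 passed.

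Tpm4 averaged 15.81 ± 0.17 in number 1, 15.14 ± 0.04 in number 2 and 15.22 ± 0.09 in number 3 (SD, n = 4 each), a difference of +0.63 ± 0.09 (adjusted p = 3.65e-04). Zyx averaged 10.95 ± 0.10 in number 1, 10.49 ± 0.05 in number 2 and 10.48 ± 0.14 in number 3, a difference of +0.46 ± 0.09 (adjusted p = 0.00270). Tagln differed by +0.57 ± 0.12 (adjusted p = 0.00505), with 15.95 ± 0.37 in number 1, 15.53 ± 0.12 in number 2 and 15.23 ± 0.13 in number 3. These 3 passed in every alternative fit, as did Smtn (+0.39 ± 0.08) and Pdlim5 (+0.36 ± 0.08). Tpm2 (+0.52), Actn1 (+0.46), Cnn2 (+0.46), Vcl (+0.45), Acta2 (+0.38), Cald1 (+0.33), Tpm1 (+0.31), Flna (+0.29) and Cnn3 (+0.27) also passed, with adjusted p-values up to 0.0446, and so did Actg2. Synpo2 differed by -0.46 ± 0.12. Among those that did not pass were Actn4 (+0.24, adjusted p = 0.0592), Myl9 (+0.32, 0.0655) and Cnn1 (+0.32, 0.199). The arrays of number 1 lay above all others for 9 members, Acta2, Cnn2, Cnn3, Tpm1, Tpm4, Smtn, Actn4, Zyx and Pdlim5, against 4.1% of all genes.

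**Figure D4:**
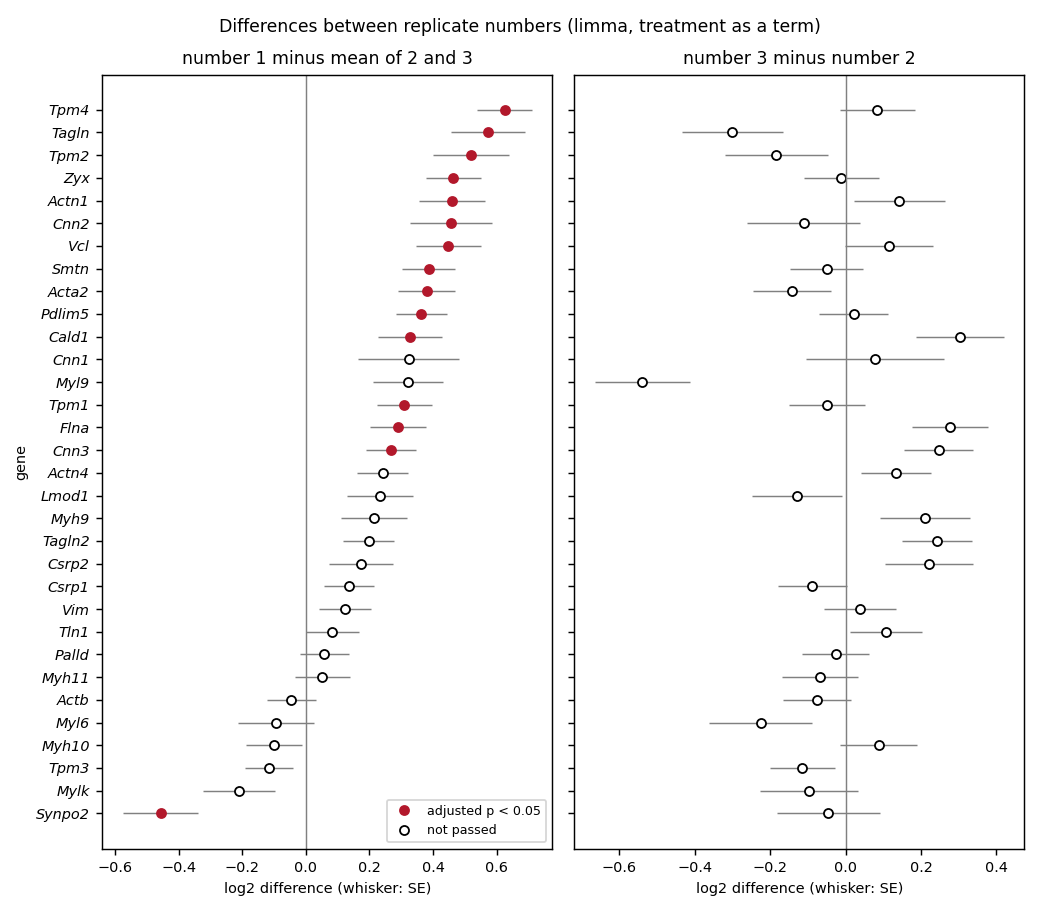
Log2 difference of 32 members between replicate numbers, number 1 minus the mean of 2 and 3 on the left and number 3 minus number 2 on the right, with standard errors from limma and filled symbols where the adjusted p is under 0.05; Actg2 and Des, with means below the negative controls, are left out, and the 2 axes have different ranges. On the left 14 members are filled above 0 and Synpo2 below it, and on the right none is filled.

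The difference was also read within each treatment, where it rests on 1 array against 2 and was not tested between treatments. Within the co-treated group the median member was 0.26 higher in number 1 than the mean of numbers 2 and 3 (30 of 34 higher). It was 0.21 higher within the MIF group (28 of 34), 0.31 within the sCD74 group (28 of 34) and 0.11 within the carrier group (21 of 34), where all-gene medians were 0.01 to 0.02. The spread between treatments was also widest in number 1: the median SD of a member over the 4 arrays was 0.17 in number 1, 0.09 in number 2 and 0.12 in number 3. For all genes these were 0.18, 0.14 and 0.16. Without the co-treated array of number 1 the number of members past the test was 7, and without the sCD74 array of number 1 it was 6. The share of all genes that passed in these reduced fits is not given here. These counts are therefore not read as a trait of the members.

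Markers of other cell types moved with the replicate number beside these genes. Summed levels are the log2 of the sum of the unlogged signals of a list's genes, so its brightest probe sets weigh most. In number 1 the 13 macrophage markers had summed levels of 18.13 to 18.51 (log2), against 18.92 to 19.14 in number 2 and 18.51 to 18.89 in number 3. None of the 13, among them Lyz2 and Cx3cr1, had a mean below the negative control median. The 10 endothelial markers summed to 15.89 to 16.01 in number 1, 14.87 to 14.97 in number 2 and 15.11 to 15.31 in number 3, with Cdh5 (VE-cadherin) differing by +2.67 ± 0.15. The 11 smooth muscle and pericyte markers summed to 12.74 to 13.07 in number 1, against 11.53 to 11.73 in number 2 and 11.80 to 11.99 in number 3. Of these 6 passed as higher, led by Mcam (+2.13 ± 0.14), where 7.03% of all genes did. The next largest difference in the list was +1.15 ± 0.16, for Abcc9. Rgs4 (+0.48), Cspg4 (+0.17), Higd1b (+0.12), Hhip (-0.04) and Notch3 (-0.06) did not pass, so the list did not move as a whole. Means below the negative control median were found for 6 of the 11, among them Rgs5 and Cspg4. The 14 cardiomyocyte markers summed to 14.45 to 14.85 in number 1, 15.08 to 15.29 in number 2 and 13.30 to 13.50 in number 3. Their sum in number 1 thus lay below that in number 2, and above that in number 3 only. Against the mean of numbers 2 and 3, 7 of the 14 cardiomyocyte markers passed as higher. Of the 6 epicardial and mesothelial markers 2 did, where 7.03% of all genes did. Among the latter Upk3b (-0.41) and Lrrn4 (-0.07) were lower and did not pass. The means of 4 of the 14 and 4 of the 6 lay below the negative control median. Smooth muscle cells and pericytes also express Acta2, Tagln and Cnn1. The part of these cells in the differences between numbers was not tested.

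**Figure D5:**
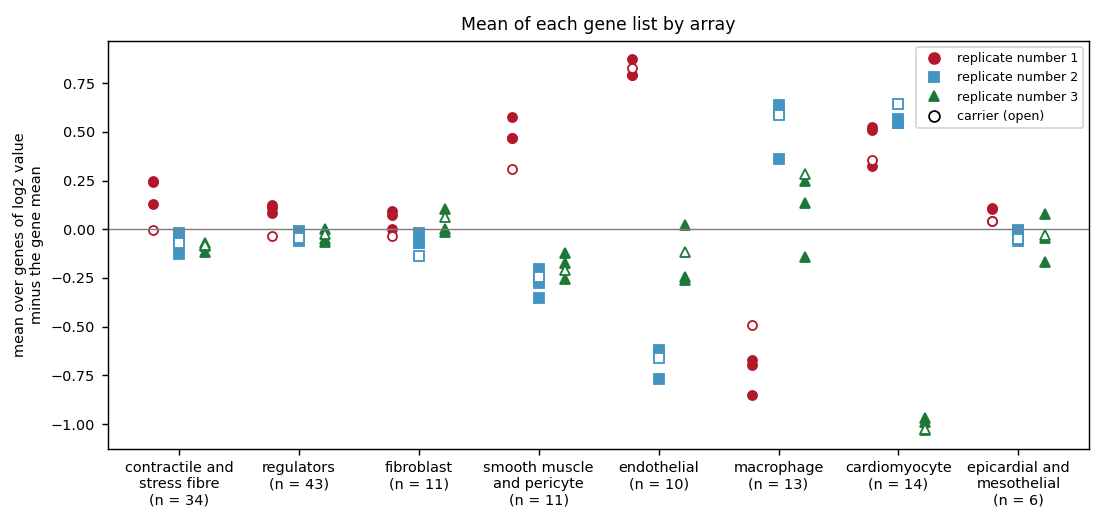
Mean over the genes of each list of the log2 signal minus the gene's own mean, with a symbol for each of the 12 arrays by replicate number (open symbols for carrier). The contractile and stress fibre genes lie at 0.00 to 0.25 in number 1 and at -0.13 to -0.02 in numbers 2 and 3, a narrower band than that of the macrophage, endothelial or cardiomyocyte markers.

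Between numbers 3 and 2 the members split. Of 34, 16 were higher in number 3, with a median of -0.02 against -0.01 for all genes. Des passed as lower, where 0.708% of all genes did, with all its arrays below the negative controls, and 0 members passed as higher, where 0.441% did. Myl9 averaged 12.89 ± 0.05 in number 3 and 13.43 ± 0.06 in number 2 (SD, n = 4 each), a difference of -0.54 ± 0.13 (adjusted p = 0.0668), without overlap. Among genes above the negative control median its adjusted p was 0.0289. Tagln (-0.30 ± 0.13) and Acta2 were also lower in all arrays of number 3, as were Tpm3 and Des, 5 members against 4.94% of all genes. Flna (+0.28 ± 0.10), Cnn3 (+0.25 ± 0.09), Cald1 (+0.30 ± 0.12) and Csrp2 were higher in all arrays of number 3, 4 members against 5.5%. Tagln2 differed by +0.24 ± 0.09. The cardiomyocyte markers summed to 13.30 to 13.50 in number 3 and 15.08 to 15.29 in number 2, with a median difference of -1.22, and their part in these values was not tested.

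Regulators of contraction and adhesion were read from a list of 45 genes, of which 43 were measured and Rock2 and Ptk2 were not analysed here. None passed against carrier with co-treatment, MIF or sCD74. They were higher with co-treatment in 30 of 43 (median +0.08), with MIF in 28 (+0.05) and with sCD74 in 29 (+0.05). Mrtfa, the actin-sensing coactivator of SRF, differed by -0.36 ± 0.14 with co-treatment, -0.41 ± 0.14 with MIF and -0.20 ± 0.14 with sCD74. The smallest of its unadjusted p-values (limma) was 0.0129, and these comparisons share the carrier arrays. Of all genes 4%, 3.35% and 1.79% had an unadjusted p under 0.05 in them. Mrtfa, like the regulators named next, was picked from the 43 for its small p. Rhoc, a small GTPase that drives actomyosin contraction, differed by +0.40 ± 0.16 with co-treatment, Diaph1, a formin that elongates actin filaments, by -0.27 ± 0.14 with MIF, and Capn2, a protease of adhesion turnover, by +0.26 ± 0.14 with sCD74.

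Between replicate numbers 9 of 43 regulators passed as higher in number 1 and 3 as lower, with a median of +0.06. Over all genes 7.03% passed as higher and 9.39% as lower, so the 3 lower ones are no more than the share of the table. The formin Diaph3 (+0.76 ± 0.11), the zyxin relative Lpp (+0.58 ± 0.09), the alpha-actinin-binding Pdlim3 (+0.53 ± 0.09) and the fibronectin receptor subunit Itga5 (+0.72 ± 0.12) had the smallest p. The 3 that fell were Fhl2, a LIM protein, and the TGF-beta receptors Tgfbr1 and Tgfbr2, named here after their values were seen. In number 3 against number 2, Diaph3 rose (+0.71 ± 0.12) and the cardiac actin Actc1 fell (-1.46 ± 0.17). The skeletal actin Acta1, the filament protein Synm, Limk2 and the SRF coactivator Myocd had means below the negative control median.

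Since many of these genes are known SRF targets and members rose together in number 1, their promoters were read for the CArG box, the site SRF binds, in its strict form on either strand. RefSeq promoters of GRCm38.p6 were matched by symbol for 29 of the 34 members, and the 250 bases before the start site were searched. Tagln, Csrp2, Actb, Actg2 and Myh11 had no entry. The box was found in 4 of 29 members (13.8%), against 439 of 27025 genes (1.62%). Since the list was chosen by function and holds known SRF targets, this share does not bear on the rise in number 1. These 4 stretches, printed to show the boxes themselves, have the box in capitals and are each 40 bases long, 5′ to 3′ on the strand of the gene. They lie at chr10:79988529-79988568 (plus strand) for Cnn2, chr14:20929156-20929195 (plus) for Vcl, chr2:156775288-156775327 (plus) for Myl9 and chr10:128493035-128493074 (minus) for Myl6.
Cnn2: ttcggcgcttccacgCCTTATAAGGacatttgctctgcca
Vcl: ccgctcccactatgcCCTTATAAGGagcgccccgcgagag
Myl9: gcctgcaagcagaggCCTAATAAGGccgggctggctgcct
Myl6: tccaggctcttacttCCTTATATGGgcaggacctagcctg

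Counted from the start site, the boxes begin at position -56 in Cnn2, -227 in Vcl, -161 in Myl9 and -50 in Myl6. Another promoter of Myl6 held no box, and a gene was counted when any of its promoters matched. Cnn2 and Vcl passed as higher in number 1, while Myl9 (+0.32) and Myl6 (-0.09) did not. Of the 13 matched members that rose in number 1, 2 held the box (15.4%), and of the other 16, also 2 (12.5%). The MCAT core CATTCC, counted on both strands, stood in 12 of 29 members (41.4%), against 14.4% of genes. It was found in 6 of the 13 members that rose and in 6 of the other 16. A match is a run of letters and not a measured binding site, and boxes further from the start or in introns were not searched. Boxes that depart from the strict form were not counted, so a member without a match may still hold one near its start.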

How the data were processed

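Total RNA of 12 cultures was hybridised to whole-transcript arrays. The authors' deposited values are log2 probe set signals, and per the submitters' processing notes RMA, Affymetrix Expression Console and Transcriptome Analysis Console were used, with no versions. RMA normalizes arrays to each other and can hide a global shift. A genome build for the probe sets was not given in the sources used here. Of 28846 probe sets, 6640 controls were left out, and 19572 of the other 22206 had 1 gene symbol, 2634 had none. The probe set with the highest mean stood for a gene, which left 19505 genes.

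Groups came from the labels. limma 3.58.1 in R 4.3.3 (lmFit, eBayes) fitted 4 group means over 12 arrays, two-sided, with Benjamini-Hochberg adjustment within each of 11 comparisons at 0.05. Replicate numbers were compared with treatment as a term. The fit was tested on simulated data. Titles give same-numbered arrays a shared code, and the same-numbered differences treat the numbers as pairing the samples. After subtracting group means, same-numbered arrays correlated at 0.10 to 0.65, against -0.54 to 0.18 for other pairs. The main fit of the treatment comparisons has no term for the number, and the fit with the number as a block was an alternative.

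Members, gene lists and tests were chosen with earlier results of these data known. By rule, all 12 values were printed for Acta2, Tagln, Cnn1, Myl9 and Des, for the 3 members with the smallest p against carrier in each comparison and the 5 in each comparison of numbers. Regulators were named if called (up to 4 by p) or among the 2 smallest p against carrier. The withholding of sizes for Actg2 and Des was decided after their values were seen. The markers Cd68, Egfl7 and Pdgfra were not analysed here.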

Additional observations from a re-analysis of the deposited data

Results flagged for a closer look

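For Vim, with either protein, and for Pdlim5, with sCD74, the same-numbered differences had opposite signs with and without the other protein in all 3 numbers, and none of them passed a test. Adding MIF to sCD74 changed the log2 signal of Vim by -0.12, -0.06 and -0.03 in numbers 1, 2 and 3, and MIF over carrier changed it by +0.37, +0.01 and +0.09. Adding sCD74 to MIF changed Vim by -0.18, -0.04 and -0.01, and sCD74 over carrier by +0.32, +0.02 and +0.11. The difference between the paired responses was -0.224 ± 0.17 (SE, unadjusted p = 0.210, adjusted p = 1.0 by limma) and did not pass the test, whichever protein is taken as the added one. That fit has no term for the replicate number, so its SE leaves the pairing out. With the number as a block the unadjusted p (limma) was 0.174, and the difference did not pass there either. Several of the Vim steps are under 0.05.

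Adding sCD74 to MIF changed Pdlim5 by -0.05, -0.08 and -0.14, and sCD74 over carrier by +0.17, +0.16 and +0.09. The difference between the responses was -0.230 ± 0.25 (unadjusted p = 0.367, adjusted p = 1.0) and did not pass. With the number as a block the unadjusted p (limma) was 0.152, and it did not pass there either. Such opposite signs in all 3 numbers were met by 2.36% of all genes for MIF and 2.88% for sCD74.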

How the results depend on the processing

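No member passed in any of the 9 treatment comparisons under any of the alternatives: the replicate block (0 members), array centring, a repeated quantile normalization, genes above the negative control median, probe set means, an intensity trend with robust variance, each array left out in turn and, chosen after seeing the data, without the arrays of number 1 and the block with trend and robust variance. The block therefore changed no call. The mean over the members of an array differed from carrier by 0.10 with co-treatment (0.01 to 0.17 with an array left out), by 0.05 with MIF (-0.01 to 0.10) and by 0.05 with sCD74 (-0.07 to 0.12). It turned to -0.0115 without the number 1 array of MIF and to -0.0710 without that of sCD74, both with the carrier array of number 1 kept, which shifts the difference downwards. For number 1 against the others, 16 members passed, 6 to 15 with an array left out, and Tpm4, Zyx, Tagln, Smtn and Pdlim5 passed in all 19 fits. Synpo2 missed the threshold after quantile normalization (adjusted p = 0.0575). For number 3 against number 2, 1 passed, Des. Without the treatment term 2 did (Des and Myl9), with trend and robust variance 6 (also Cald1, Cnn3, Flna and Tagln2), and 0 to 2 with an array left out. Among genes above the negative control median Myl9 passed (adjusted p = 0.0289) and Des was not tested. For the comparisons of replicate numbers, the share of all genes that passed in each alternative fit is not given here. The changes in these counts are therefore not read as particular to the members. The cause of these changes was not tested. With 3 arrays a group, the number of arrays limits the precision.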
